A study of Mus musculus with 19 samples.

Results

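Ligands of the EGF family and the ERBB receptors that bind them were followed in mouse mammary tissue through pregnancy, as mRNA levels of 10 genes out of the 24421 with a read count. The 10 were chosen by symbol, with earlier results of these data known. They are the ligands Areg, Egf, Btc, Hbegf, Tgfa and Nrg1 and the receptors Egfr, Erbb2, Erbb3 and Erbb4, and all 10 passed the filter on low counts in every comparison. The study deleted enhancers of the casein locus in mice and measured the transcriptome by total RNA-seq of 19 libraries of C57BL/6 mammary gland. WT tissue gave 3 libraries at day 6 of pregnancy (p6) and 3 at day 18 (p18). Tissue labelled Enhancer-delS1-4, the super-enhancer deletion that the study calls ΔSE, gave 4 libraries at p6 and 4 at p18. A deletion labelled delCsn1s2b-E (ΔCsn1s2bE) gave 3 libraries at p18, and a deletion of the proximal Csn3 enhancer, labelled delCsn3-PE (ΔCsn3PE), gave 2 at p18. The deletions are in the germ line and are therefore present in every cell type of the gland. The study's methods say that the mutants were homozygous and that the lines were made on C57BL/6N mice. Which Csn1s2b enhancer was removed is not given in the labels, and the extraction notes of these 5 single-enhancer libraries name WT tissue in lactation while their stage label says p18. They have no WT libraries of their own set, so that a difference of these lines from WT cannot be told apart from a difference between the sets. In bulk tissue, fewer cells of a type and less RNA per cell cannot be told apart.

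EGF family ligands are made as membrane proteins and are cut from the cell surface by metalloproteases of the ADAM family before they reach a receptor on the same or a neighbouring cell. Receptors then pair. EGFR binds Areg, Egf, Tgfa, Btc and Hbegf, while ERBB3 and ERBB4 bind neuregulins such as Nrg1, ERBB2 has no known ligand of its own, and ERBB3 has little kinase activity. In the mammary gland, amphiregulin (Areg) is known as the estrogen target that carries the signal for duct growth from hormone-sensing luminal cells to their neighbours, and ERBB4 is known for its part in the differentiation of milk-producing alveoli.

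Areg lies on chromosome 5, the chromosome of the caseins, at positions 91139599 to 91148432 of GRCm38 (plus strand), 3.207 Mb beyond the end of Csn3. Btc is on the same chromosome at 91357261 to 91402994 (minus strand), in a cluster with Ereg and Epgn that spans 375.5 kb. Egf is on chromosome 3 at 129677565 to 129755316 (minus strand). The start regions of Areg and Egf, the members that changed most between stages in WT tissue, are shown from RefSeq promoter windows (GRCm38.p6, 250 bases before and 50 bases after the start) at chr5:91139349-91139648 (plus strand) and chr3:129755273-129755572 (minus strand). Capitals mark the cAMP response element TGACGTCA.
Areg: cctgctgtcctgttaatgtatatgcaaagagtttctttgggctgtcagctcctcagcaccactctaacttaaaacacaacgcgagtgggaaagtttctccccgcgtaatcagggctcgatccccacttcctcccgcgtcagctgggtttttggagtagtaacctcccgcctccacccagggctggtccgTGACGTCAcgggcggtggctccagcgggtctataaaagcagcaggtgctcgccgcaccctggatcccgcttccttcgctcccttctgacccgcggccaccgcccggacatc
Egf: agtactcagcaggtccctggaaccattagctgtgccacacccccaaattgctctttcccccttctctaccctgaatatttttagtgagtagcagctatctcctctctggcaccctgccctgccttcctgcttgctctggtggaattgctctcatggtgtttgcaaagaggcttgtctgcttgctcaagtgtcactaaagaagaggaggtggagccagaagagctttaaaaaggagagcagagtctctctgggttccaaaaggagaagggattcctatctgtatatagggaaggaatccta
The Areg window held 1 match to TGACGTCA, a sequence found on either strand in 1.79% of 32851 such windows, and the Egf window held none. The STAT5 motif TTCNNNGAA, found in 8.30% of windows, had no match in either. Windows were found for 7 of the 10 members, and Areg alone among these 7 had a match to TGACGTCA. A match describes letters and not a bound site.

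The 19 libraries held between 12335272 and 30329601 reads in genes. In the WT and ΔSE libraries the ribosomal precursor Rn45s took 21.7 to 42.9% of these reads and in the single-enhancer libraries 0.0765 to 0.924%, so that members with low levels were counted more precisely in the latter. Among the other members, Tgfa is on chromosome 6, Nrg1 on 8, Egfr and Erbb2 on 11, Erbb3 on 10 and Erbb4 on 1. Ligand counts were low, down to 2 reads for Areg and 8 for Hbegf and Tgfa, while Egfr was never under 959 reads. Levels are counts relative to library size (CPM), scaled by TMM over all 19 libraries. Csn3, a casein gene of the locus, ranged from 46.4 to 423 CPM in WT and from 0 to 5.84 CPM in ΔSE tissue at p6, and from 5168 to 6707 and from 50.1 to 146 CPM at p18. It stood at 1358 and 276 CPM in ΔCsn3PE tissue. Csn1s2b stood at 42.7 to 217 CPM in WT tissue at p18 and at 27.8 to 51.5 CPM in ΔCsn1s2bE tissue. In ΔSE tissue it stood at 2.62 to 15.7 CPM at p18. At p6 it was at 9.95 CPM in ΔSE replicate 4, above the 1.65 to 5.01 CPM of WT tissue, and at 0 to 0.113 CPM in the other 3 ΔSE libraries, and the 5.84 CPM of Csn3 was of that same replicate 4. Some libraries stood apart from others of their group. WT replicate 2 at p6 had a summed level of 5 alveolar markers of 92.2 CPM, against 1488 and 1232 CPM in the other two. Transcripts of 6 skeletal muscle genes summed to 3.37 CPM in WT replicate 1 at p18 but to 914 and 1358 CPM in replicates 2 and 3, and to 6.75 to 12.1 CPM in ΔSE tissue at p18. Each member was therefore also tested with WT replicate 1 as the only WT library at p18, a test added after the levels were seen. Genes that define the submandibular gland, a rich source of Egf, were at or near 0. Klk1b9, Klk1b22 and Klk1b26 had 0 reads in all 19 libraries, which allows up to 3 reads per library, and Smgc and Bpifa2 did not exceed 0.105 CPM. All 7 genes of that list together summed to between 0.0743 and 1.54 CPM.

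The first question was how ligand and receptor mRNA levels change between early and late pregnancy in WT tissue. Areg fell to a trace, Egf rose about 4.35-fold and Tgfa fell, and of the 4 receptors Erbb2 was called, with a small fall. Of the 10 members 1 rose and 3 fell (edgeR quasi-likelihood test, Benjamini-Hochberg adjusted p under 0.05), beside 29.6% of the 17844 genes tested that were called in either direction (17.2% higher and 12.4% lower). The median log2 fold change of the members was -0.13 and that of all genes -0.05. The groups did not overlap for 5 of the 10, as for 39.9% of all genes. With 1 factor of unwanted variation in the model, Areg was the 1 member called in WT tissue, where 83 of 17844 genes were called higher and 34 lower. None was called between stages in ΔSE tissue, where 0 of all genes were.

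Areg stood at 29.1, 85.8 and 20.8 CPM in the 3 WT libraries at p6 and at 0.551, 0.130 and 0.532 CPM at p18, where it rested on 8, 2 and 10 reads. Every library at p6 was far above every library at p18. The log2 fold change was -6.74 ± 0.57 (SE), about 107-fold, with an adjusted p of 1.15e-06 in edgeR's quasi-likelihood test. Egf, whose precursor is a large membrane protein, was at 5.85, 3.05 and 3.87 CPM at p6 and at 16.3, 21.6 and 16.2 CPM at p18. Here too the stages were apart, with all p18 libraries the higher. The rise was 2.12 ± 0.28 on the log2 scale (edgeR adjusted p = 5.75e-05).

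Tgfa, a ligand of EGFR like Areg, was at 2.05, 5.79 and 4.39 CPM in WT tissue at p6 and at 0.826, 1.82 and 1.70 CPM at p18. Its log2 fold change was -1.47 ± 0.40 (edgeR adjusted p = 0.0112), and the lowest p6 library was only slightly above the highest at p18. Nrg1, a ligand of ERBB3 and ERBB4, was at 0.790, 0.931 and 1.67 CPM at p6 and at 2.34, 2.14 and 1.97 CPM at p18. The stages did not overlap, but the difference of 0.92 ± 0.36 on the log2 scale missed the threshold (edgeR adjusted p = 0.0641), and it passed without WT replicate 3 of p6, the highest of its group (adjusted p = 0.0213). Btc (2.27 to 7.5 CPM) and Hbegf (1.06 to 1.55 CPM) overlapped between the stages, with edgeR adjusted p values of 0.233 and 0.786.

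**Figure D1:**
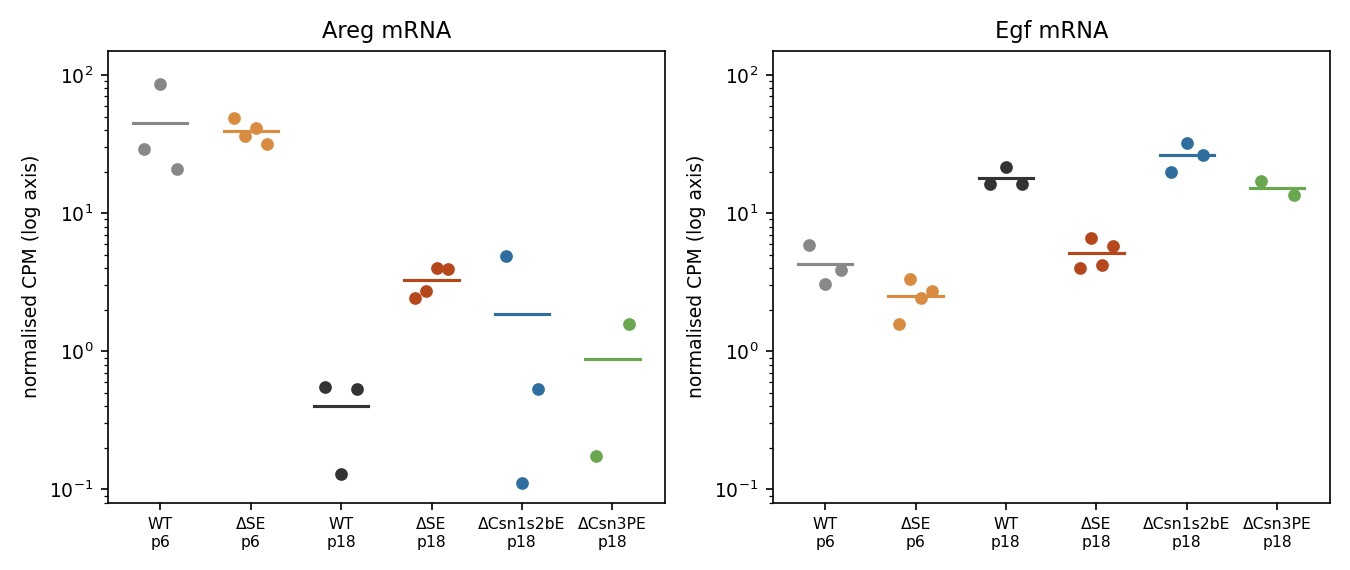
Levels of Areg (left) and Egf (right) in each library, in normalised CPM on a log axis, for the 6 groups; points are libraries and lines are group means. Areg drops from 20.8 to 85.8 CPM in WT tissue at p6 to under 1 CPM at p18, while ΔSE tissue at p18 keeps 2.44 to 4.02 CPM; Egf is 16.2 to 21.6 CPM in WT and 4.03 to 6.66 CPM in ΔSE tissue at p18.

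ΔSE tissue passed through the same stages, and the question was whether the ligands changed there as well. Areg and Tgfa fell and Egf rose, and in addition Hbegf fell and the receptors Erbb3 and Erbb4 rose. In all 3 members rose and 3 fell, beside 35.6% of 17844 genes called in either direction (17.3% higher and 18.3% lower), and the median of the members was -0.10 against -0.07 for all genes. The groups did not overlap for 7 of the 10 members, as for 38.1% of all genes.

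Areg was at 48.7, 36.5, 41.1 and 31.6 CPM in the 4 ΔSE libraries at p6 and at 2.44, 2.74, 4.02 and 3.96 CPM at p18. The 4 libraries of each stage lay close together and far from the other stage. The log2 fold change was -3.54 ± 0.39 (edgeR adjusted p = 6.18e-06), a fall of about 11.7-fold. Egf rose from 1.58, 3.35, 2.45 and 2.72 CPM to 4.03, 6.66, 4.22 and 5.77 CPM, by 1.04 ± 0.26 on the log2 scale (adjusted p = 0.00524). With library totals alone as the scaling, the rise of Egf was 0.42 and was not called (adjusted p = 0.214).

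Tgfa was at 5.52, 4.77, 4.51 and 3.02 CPM in ΔSE tissue at p6 and at 1.41, 0.730, 1.77 and 1.21 CPM at p18, with no overlap. It fell by 1.76 ± 0.36 on the log2 scale (edgeR adjusted p = 0.00133). Hbegf, the heparin-binding ligand of EGFR and ERBB4, went from 1.35, 1.89, 1.34 and 2.03 CPM to 0.844, 1.19, 0.545 and 0.939 CPM. Its log2 fold change was -0.91 ± 0.32 (adjusted p = 0.0362) on 8 to 14 reads per library at p18, and the call was lost in 8 of 26 alternatives, among them leaving out ΔSE replicate 2 or 4 at p6 or replicate 1, 3 or 4 at p18. Btc (3.75 to 6.13 CPM) and Nrg1 (1.5 to 3.27 CPM) overlapped between the stages.

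Next, ΔSE was compared with WT tissue at p18, which asks whether the ligands differ once the casein super-enhancer is gone. Areg was higher and Egf lower in ΔSE tissue, and no other member was called. These 2 of 10 members stood beside 0.314% of 17844 genes called (0.101% higher and 0.213% lower). The groups did not overlap for 3 members (Areg, Egf and Egfr), as for 15.1% of all genes. The median log2 difference was 0.03 over the members and -0.04 over all genes.

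Egf, at 4.03 to 6.66 CPM (5.17 ± 1.26, SD, n = 4) in ΔSE and 16.2 to 21.6 CPM (18.0 ± 3.07, n = 3) in WT tissue at p18, was the more firmly measured of the pair. The log2 difference was -1.79 ± 0.26 (95% interval -2.34 to -1.24, edgeR adjusted p = 0.00921), about 3.46-fold. Each ΔSE library was under each WT library. In WT replicate 1, the library with few muscle transcripts, Egf was at 16.3 CPM, close to the other two. With it as the sole WT library at p18 the difference of Egf was -1.67 and the adjusted p 0.129. The call of Egf was also lost without WT replicate 2 (adjusted p = 0.0817) or ΔSE replicate 3 (adjusted p = 0.0560), and was kept in the other 23 of 26 alternatives, whose log2 differences together with these 3 ran from -1.93 to -1.65.

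Areg, at 2.44 to 4.02 CPM (3.29 ± 0.82, SD, n = 4) in ΔSE and 0.130 to 0.551 CPM (0.404 ± 0.238, n = 3) in WT tissue at p18, was higher by 3.01 ± 0.61 on the log2 scale (95% interval 1.72 to 4.31). The edgeR adjusted p was 0.0497, just under the threshold. All ΔSE libraries were above all WT libraries, with 26 to 59 reads against 2 to 10. The call was lost in 18 of 26 alternatives, with adjusted p values from 0.0512 without Rn45s to 0.353 with WT replicate 1 as the sole WT library at p18. Leaving out any WT or ΔSE library of p18, or any ΔSE library of p6, was among these. In all 26 alternatives the log2 difference of Areg was between 2.57 and 3.29.

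At p6 none of the 10 members was called between ΔSE and WT tissue (edgeR quasi-likelihood test), beside 1.03% of 17844 genes, and no member's groups were apart, as were those of 11.4% of all genes. Unadjusted p values were under 0.05 for Egf, Egfr and Erbb4. Egf was lower by a log2 difference of 0.71 ± 0.28 (adjusted p = 0.198), and Areg differed by -0.19 ± 0.35 (95% interval -0.92 to 0.55), with 31.6 to 48.7 CPM in ΔSE and 20.8 to 85.8 CPM in WT tissue. DESeq2 called 1 member, Egfr (adjusted p = 0.0336), and leaving out WT replicate 2 of p6 gave calls for Egfr (0.69, adjusted p = 0.00405) and Erbb4 (-0.74, adjusted p = 0.0148).

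Whether the change between stages differed between the genotypes was tested as an interaction. None of the 10 members passed (edgeR quasi-likelihood test), beside 0.151% of 17844 genes. Areg came closest, with an interaction of 3.20 ± 0.71 on the log2 scale (adjusted p = 0.0672), that is, a smaller fall in ΔSE tissue. DESeq2 called it (adjusted p = 0.0026), as did edgeR with no filter on low counts (0.0477) and without WT replicate 2 (0.00623) or 3 (0.0410) of p6. The interaction of Egf was -1.08 ± 0.38 (adjusted p = 0.184) and that of Erbb3 0.72 ± 0.28 (adjusted p = 0.216), and unadjusted p values were under 0.05 for these 3 members. A smaller fall of Areg or a smaller rise of Egf in ΔSE tissue is therefore not shown by the edgeR test.

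The balance between the 2 ligands was taken within each library as Egf reads per Areg read, a ratio that no scaling between libraries can change. WT tissue at p6 held 4.95, 27.9 and 5.36 Areg reads for each Egf read, and ΔSE tissue at p6 held 30.3, 10.8, 16.5 and 11.5. At p18 the balance had turned over in WT tissue, with 27.9, 133 and 29.0 Egf reads for each Areg read. ΔSE tissue at p18 had 1.64, 2.41, 1.05 and 1.45. By reads, the 2 ligands were thus near balance in every ΔSE library at p18, and Egf was in large excess in every WT library. The merged exons of Egf (4795 bases) are longer than those of Areg (1215 bases), so equal reads are not equal transcript levels. Per kilobase of exon, ΔSE tissue at p18 had 2.71 ± 0.67 CPM of Areg and 1.08 ± 0.26 CPM of Egf (SD, n = 4), with Areg the higher. WT tissue at p18 had 0.333 ± 0.196 and 3.76 ± 0.64 CPM per kb (n = 3), with Egf the higher.

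On the log2 scale, with 0.5 reads added to each count, the mean ratio was -3.18 ± 1.41 (SD, n = 3) in WT and -3.98 ± 0.68 (n = 4) in ΔSE tissue at p6, and 5.57 ± 1.28 (n = 3) in WT and 0.65 ± 0.49 (n = 4) in ΔSE tissue at p18. The ratio rose between stages by 8.75 in WT tissue (exact permutation test, two-sided p = 0.1, the smallest that 3 against 3 allows) and by 4.63 in ΔSE tissue (exact permutation test, p = 0.0286, the smallest for 4 against 4). ΔSE was 4.92 below WT tissue at p18 (exact permutation test, p = 0.0571, again the smallest possible). At p6 the difference was -0.81 (exact permutation test, p = 0.343). Adjusted over the 7 ratio comparisons, none of these was under 0.05 (lowest adjusted p = 0.2 in the exact permutation tests), and a design of this size could not have passed. In the first 3 of these comparisons the groups did not overlap.

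**Figure D2:**
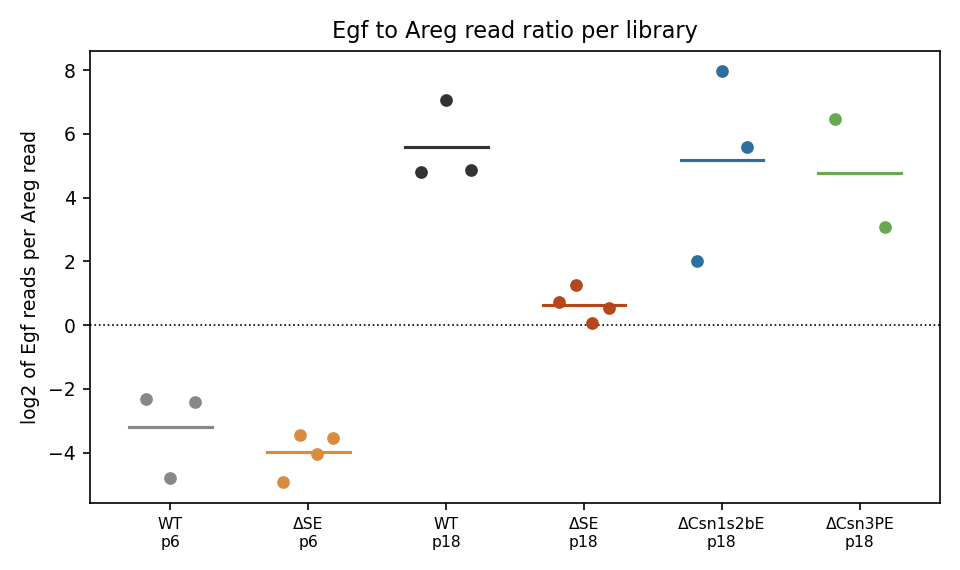
Egf reads per Areg read in each library, on a log2 scale with 0.5 reads added to both counts; points are libraries, solid lines group means and the dotted line equal reads. All p6 libraries lie below 0, WT tissue at p18 lies from 4.80 to 7.06, and ΔSE tissue at p18 lies from 0.07 to 1.27.

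To compare genes with each other, CPM were divided by the length of the merged exons in kilobases. On that scale Areg made up 86.9 ± 5.9% (SD, n = 3) of the summed level of the 6 ligands in WT tissue at p6 and 88.5 ± 2.3% (n = 4) in ΔSE tissue. The sum leaves out other ligands of the family, so these are shares of the 6 alone. Among those left out is the neuregulin Nrg4, with means of 15.4 CPM at p6 and 3.95 CPM at p18 in WT tissue. At p18 its share was 5.43 ± 3.50% in WT and 40.8 ± 4.3% in ΔSE tissue, where the libraries ran from 1.46 to 8.11% and from 35.1 to 45.0%. Egf took 58.0 ± 5.5% of the ligand sum in WT tissue at p18 and 16.6 ± 4.0% in ΔSE tissue. Btc, a ligand of EGFR and ERBB4, took 19.9 ± 5.6% and 27.7 ± 1.4%. The sum itself overlapped between the genotypes at p18, at 5.59 to 7.31 CPM per kb in WT and 5.01 to 7.54 CPM per kb in ΔSE tissue, and lower than the 21.1 to 75.9 and 30.1 to 44.2 CPM per kb at p6.

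**Figure D3:**
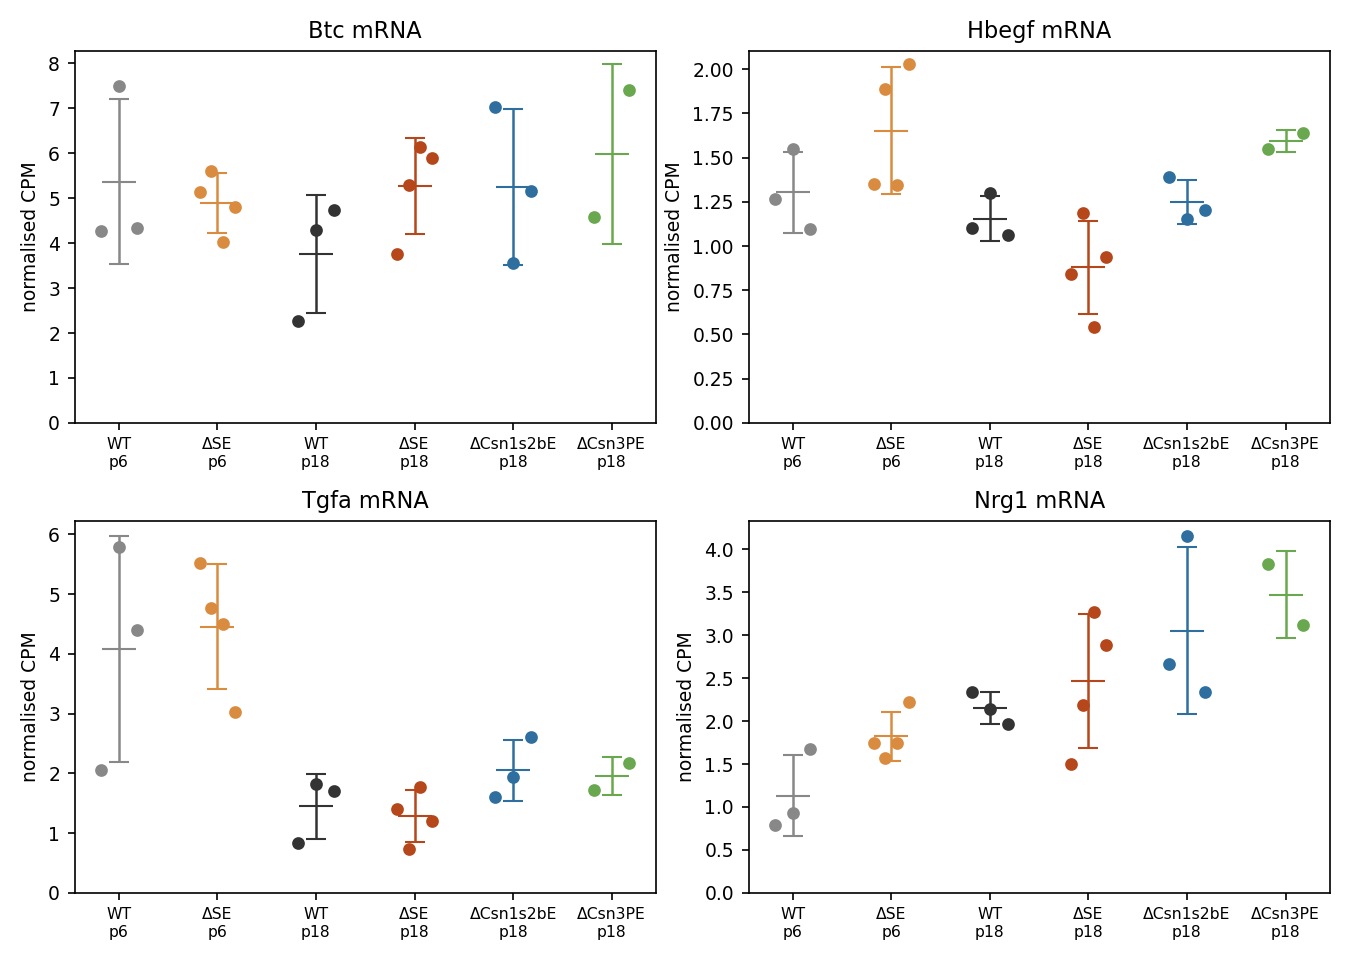
Levels of Btc, Hbegf, Tgfa and Nrg1 in each library, in normalised CPM on linear axes from 0, for the 6 groups; points are libraries, and bars are the mean and SD. Tgfa lies at 2.05 to 5.79 CPM at p6 and 0.730 to 1.82 CPM at p18 over WT and ΔSE tissue, while Btc overlaps between all groups.

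The receptors spanned a narrower range than the ligands. Summed per kilobase, the 4 receptors stood at 29.4 to 40.3 CPM per kb in WT tissue at p6, 26.6 to 33.9 at p18, 27.8 to 36.7 in ΔSE tissue at p6 and 33.1 to 40.5 at p18. Erbb3 held the largest mean share in WT tissue (43.4 ± 3.7% at p6 and 47.2 ± 2.5% at p18), and Erbb4 the smallest in every group, with group means from 1.89 to 4.22%. In ΔSE tissue at p6 Egfr (37.8 ± 6.1%) and Erbb3 (35.7 ± 5.6%) had shares that did not differ beyond their spread.

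Egfr, the receptor of most of the ligands above, was at 75.8, 122 and 89.8 CPM in WT tissue at p6 and 79.4, 85.5 and 98.2 CPM at p18. ΔSE tissue had 122, 124, 146 and 142 CPM at p6 and 104, 113, 104 and 102 CPM at p18. WT tissue overlapped between stages (log2 fold change -0.11 ± 0.15, edgeR adjusted p = 0.646), and in ΔSE tissue the stages did not overlap but the difference of -0.32 ± 0.13 was not called (adjusted p = 0.0747). It was called in 5 of 26 alternatives, among them DESeq2 (adjusted p = 0.0425) and library totals alone (-0.91, adjusted p = 0.00155).

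Erbb2, the receptor that pairs with the others, fell slightly in WT tissue, from 46.4, 56.5 and 43.3 CPM to 31.3, 37.1 and 39.8 CPM. The log2 fold change was -0.41 ± 0.15 (edgeR adjusted p = 0.0484), and the call was lost in 13 of 26 alternatives, including the loss of replicate 1 or 2 of either WT group. In ΔSE tissue it went from 42.7, 39.8, 46.5 and 32.4 CPM to 28.1, 33.5, 35.4 and 30.8 CPM (-0.32 ± 0.13, adjusted p = 0.0698), and the stages overlapped. The exons of Erbb2 overlap those of Mien1 on the opposite strand, which had 8.54 to 54.6 CPM over all libraries. Mien1 stood at 8.93 to 13.6 CPM at p6 and 24.8 to 27.3 CPM at p18 in WT tissue. In ΔSE tissue it stood at 8.54 to 13.7 CPM and 13.2 to 17.7 CPM. Whether the counting used strand is not given in the sources used here, so reads of the overlap may not be told apart.

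Erbb3, which binds neuregulins, was at 93.9, 104 and 70.7 CPM in WT tissue at p6 and 72.7, 98.9 and 94.2 CPM at p18, a log2 difference of 0.01 ± 0.21 (95% interval -0.43 to 0.45). ΔSE tissue had 75.4, 80.2, 80.7 and 46.1 CPM at p6 and 101, 95, 137 and 127 CPM at p18. The stages were apart there, with a rise of 0.73 ± 0.18 (edgeR adjusted p = 0.0053). With library totals alone the rise was 0.17 and not called (adjusted p = 0.556).

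Erbb4 was at 14.9, 7.14 and 9.93 CPM in WT tissue at p6 and 12.7, 14.7 and 15.6 CPM at p18 (log2 0.46 ± 0.21, edgeR adjusted p = 0.108). Without WT replicate 1 of p6, which overlapped the p18 group, it was called (0.77, adjusted p = 0.00574). In ΔSE tissue Erbb4 rose from 7.16, 6.13, 7.91 and 8.22 CPM to 14, 11.8, 13.1 and 12.2 CPM, with no overlap, by 0.81 ± 0.19 (adjusted p = 0.00283). With library totals alone this was 0.23 (adjusted p = 0.358). The sums of 5 luminal epithelial markers also rose between stages in ΔSE tissue, from 451 to 884 CPM at p6 to 1247 to 1330 CPM at p18, and all 5 markers were called. In the same comparison 5 of 5 fibroblast, 6 of 6 skeletal muscle, 4 of 6 adipocyte and 3 of 5 macrophage markers fell. Of 5 nerve and Schwann cell markers 4 fell and 1 rose. Their sum overlapped between stages, at 93.7 to 140 CPM at p6 and 124 to 143 CPM at p18. Over all genes 17.3% were called higher and 18.3% lower. The fibroblast sum went from 4052 to 5581 CPM at p6 to 1392 to 2659 CPM at p18, and the adipocyte sum from 1476 to 3164 CPM to 714 to 1013 CPM. The skeletal muscle sum went from 47.4 to 3381 CPM to 6.75 to 12.1 CPM, and the macrophage sum from 260 to 346 CPM to 161 to 212 CPM. The part of these shifts in the rise of Erbb3 and Erbb4 was not tested.

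**Figure D4:**
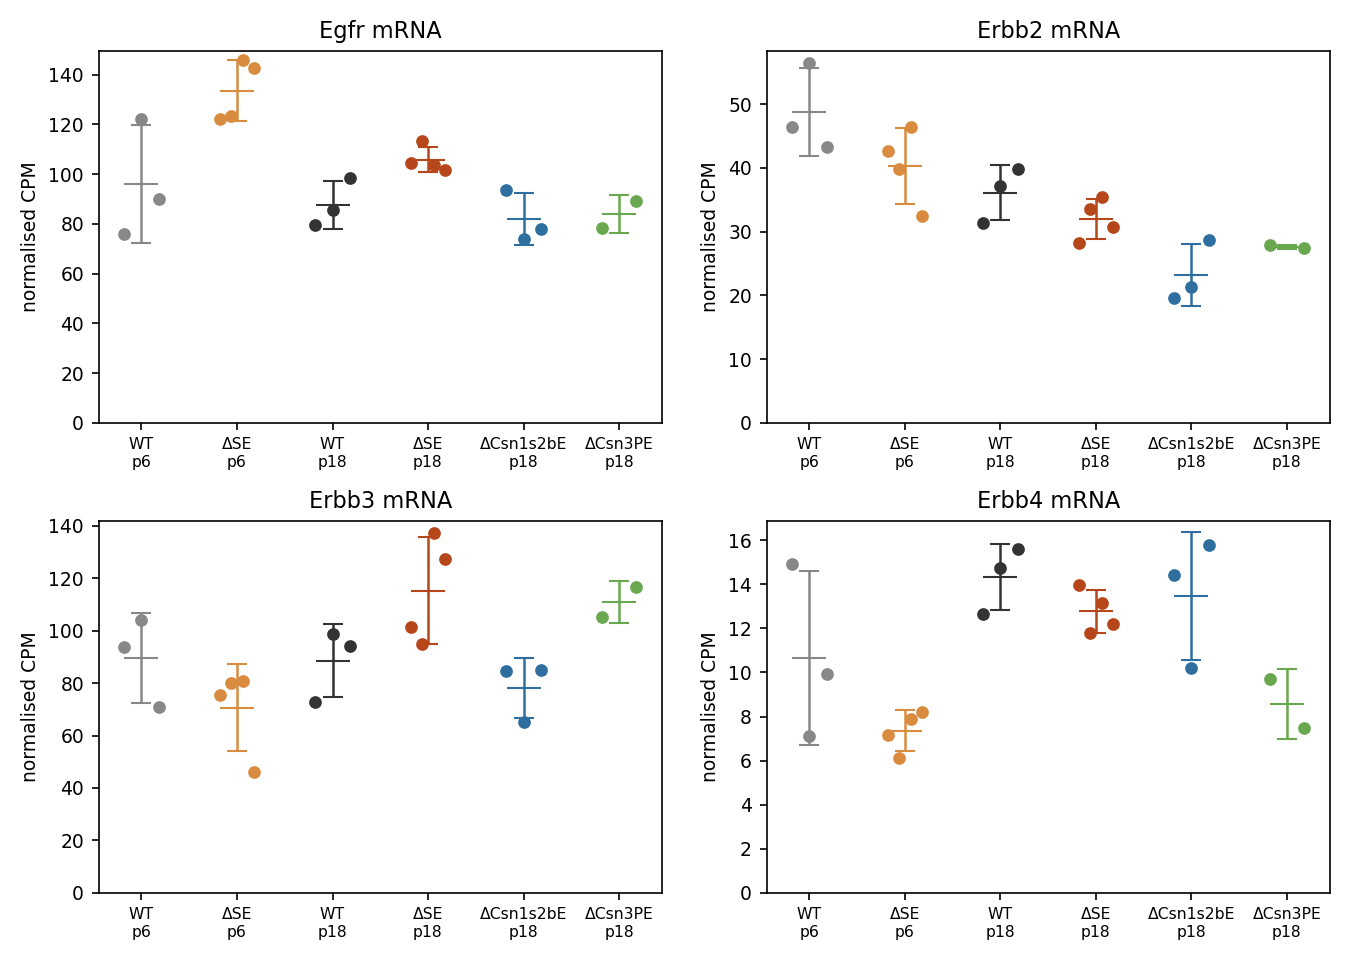
Levels of Egfr, Erbb2, Erbb3 and Erbb4 in each library, in normalised CPM on linear axes from 0, for the 6 groups; points are libraries, and bars are the mean and SD. Erbb3 in ΔSE tissue lies at 46.1 to 80.7 CPM at p6 and 95 to 137 CPM at p18, and Erbb4 at 6.13 to 8.22 CPM and 11.8 to 14 CPM.

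The single-enhancer lines were set against WT tissue at p18. Of the 10 members 1 was called for each line, Erbb2 (lower) in ΔCsn1s2bE and Erbb4 (lower) in ΔCsn3PE tissue. Over all 17125 genes 32.3% were called for ΔCsn1s2bE (15.0% lower) and 25.2% for ΔCsn3PE tissue (11.5% lower). The groups did not overlap for 2 members in ΔCsn1s2bE (46.9% of all genes) and 5 in ΔCsn3PE tissue (52.2%). Medians over the members were 0.24 and 0.32 on the log2 scale, beside 0.00 over all genes in both comparisons.

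Erbb2 was at 19.6, 21.3 and 28.7 CPM in ΔCsn1s2bE tissue, each below the 31.3 to 39.8 CPM of WT tissue, with a log2 difference of -0.70 ± 0.16 (edgeR adjusted p = 0.00773). The call was lost with library totals alone (-0.30, adjusted p = 0.296) and with WT replicate 1 as the sole WT library (-0.54, adjusted p = 0.150). In ΔCsn3PE tissue Erbb2 was at 27.8 and 27.4 CPM (-0.44 ± 0.18, adjusted p = 0.0911). Mien1, whose exons overlap those of Erbb2, stood at 33.85 to 54.6 CPM in ΔCsn1s2bE and 29.8 to 47.9 CPM in ΔCsn3PE tissue. In WT tissue at p18 it stood at 24.8 to 27.3 CPM, and the part of this overlap in the Erbb2 counts was not tested. Erbb4 was at 9.71 and 7.46 CPM in ΔCsn3PE tissue, below the 12.7 to 15.6 CPM of WT tissue (-0.80 ± 0.22, adjusted p = 0.0233), but 8 of 20 alternatives ended the call, leaving out WT replicate 2 or 3 or either ΔCsn3PE library among them.

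Areg differed widely within these lines. ΔCsn1s2bE tissue had 4.92, 0.111 and 0.535 CPM (159, 3 and 16 reads), and ΔCsn3PE tissue 0.176 and 1.58 CPM (5 and 59 reads). Against WT tissue the log2 differences of Areg were 2.14 ± 1.2 (edgeR adjusted p = 0.201) and 1.09 ± 1.34 (adjusted p = 0.584). Both estimates rested on 1 library each. Without ΔCsn1s2bE replicate 1 the former was -0.37 ± 1.01, and without ΔCsn3PE replicate 2 the latter was -1.26 ± 1.88. The same 2 libraries were the high ones of their lines for Tnfsf11, with 14.8 and 4.67 CPM against 0.186 to 0.636 CPM in the others. The sum of 7 hormone-sensing luminal markers, Tnfsf11 among them, went the other way. It was 246 CPM in ΔCsn1s2bE replicate 1 against 315 and 256 CPM, and 172 CPM in ΔCsn3PE replicate 2 against 256 CPM. Their alveolar marker sums were also the lowest of their lines, at 69219 and 66541 CPM. The part of these in the Areg levels was not tested.

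Egf was at 20.0, 32.4 and 26.4 CPM in ΔCsn1s2bE tissue and at 17.1 and 13.5 CPM in ΔCsn3PE tissue. Every library of both lines was above the 4.03 to 6.66 CPM of ΔSE tissue at p18, a comparison across label sets that was not tested. Against WT tissue the log2 differences of Egf were 0.48 ± 0.19 (95% interval 0.06 to 0.89, edgeR adjusted p = 0.0791) and -0.29 ± 0.21 (-0.76 to 0.18, adjusted p = 0.341). The former was called without ΔCsn1s2bE replicate 1 (0.63, adjusted p = 0.0305) and with library totals alone (0.86, adjusted p = 0.00257). The libraries held 4.05, 249 and 47.9 Egf reads per Areg read in ΔCsn1s2bE and 88.6 and 8.46 in ΔCsn3PE tissue, overlapping WT tissue in both (exact permutation tests, two-sided p = 1 and 0.6, smallest possible 0.1 and 0.2). Between the lines none of the 10 members was called by edgeR or by DESeq2, beside 0.181% of 17125 genes. The groups were apart for 4 members (20.5% of all genes), and unadjusted p values were under 0.05 for Egf, Erbb3 and Erbb4.

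**Figure D5:**
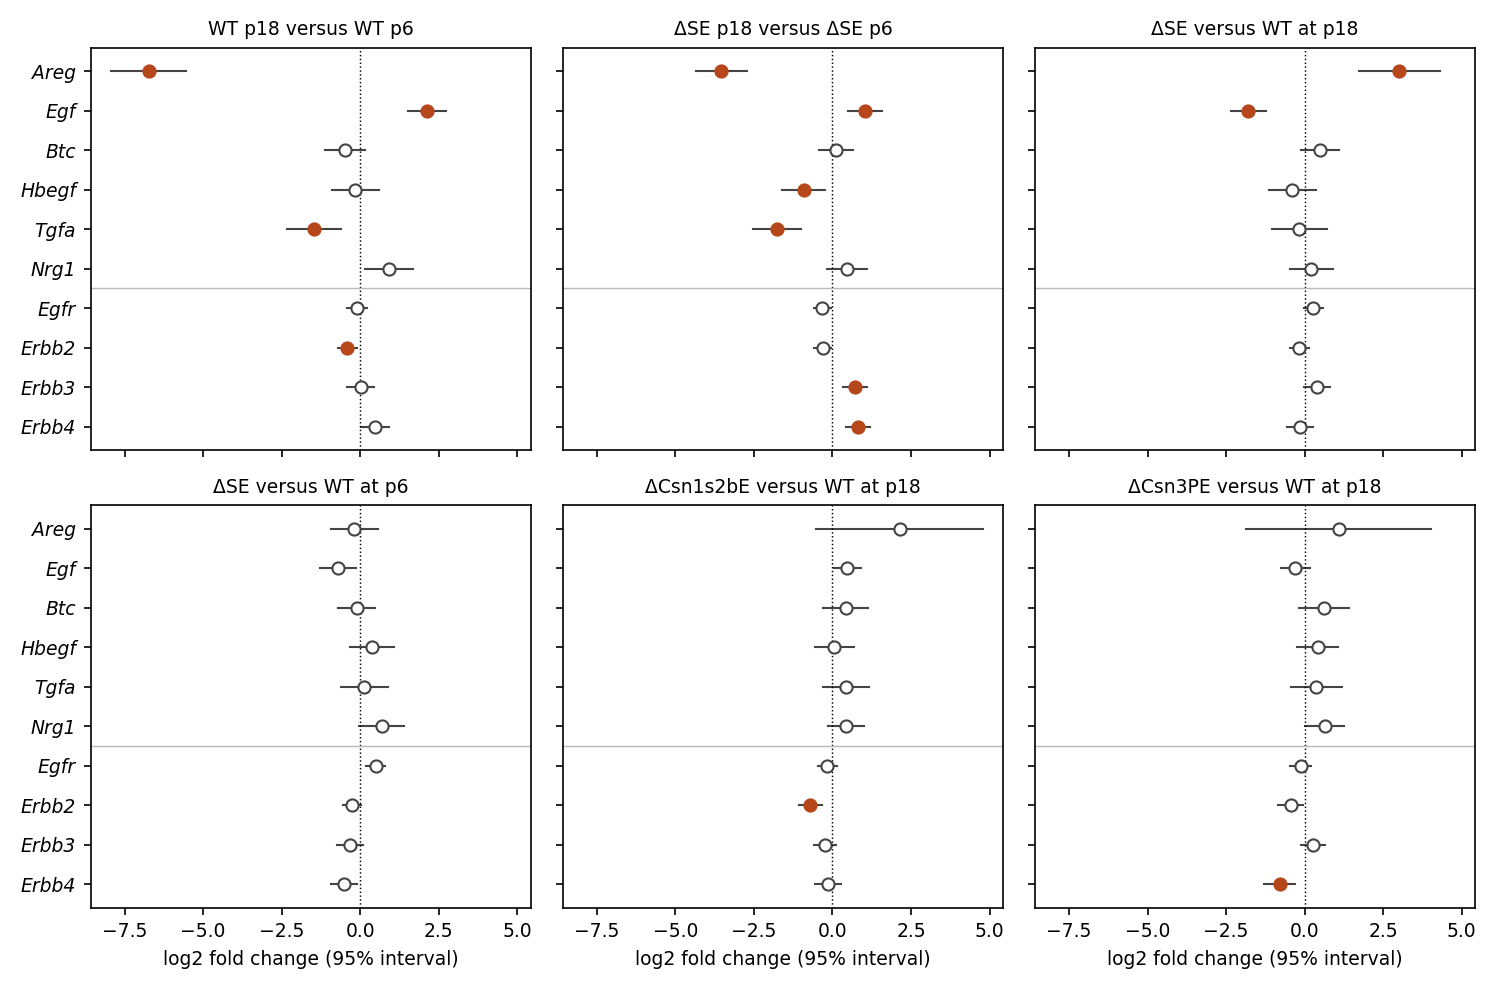
Log2 fold changes of the 10 members with their 95% intervals in 6 comparisons; filled points have an edgeR adjusted p under 0.05, and ligands stand above the grey line and receptors below it. Areg (-6.74 and -3.54) and Egf (2.12 and 1.04) move apart between stages in WT and ΔSE tissue, and in ΔSE against WT tissue at p18 they are the filled points, at 3.01 and -1.79.

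The rest of the pathway was described by 6 lists with 55 genes in all, 53 of which were tested. Between stages 7 rose and 13 fell in WT tissue, and 7 rose and 16 fell in ΔSE tissue, beside 29.6% and 35.6% of all genes called in either direction. Between ΔSE and WT tissue none was called at p18 (edgeR quasi-likelihood test), 1 rose at p6 and 1 had a called interaction. Beside that 0 at p18, edgeR gave an unadjusted p under 0.05 for 14 of the 53. The share of all genes under that limit is not given here, so the 14 have no background. DESeq2 called 3, Errfi1 (log2 0.73, adjusted p = 0.00334), Rhbdf2 (0.47, adjusted p = 0.0409) and Egr1 (0.97, adjusted p = 0.0483), all higher in ΔSE tissue. Over all 17844 genes DESeq2 called 135 higher and 361 lower in this comparison, more than edgeR did.

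Among the other EGF family ligands, Nrg4, a neuregulin that binds ERBB4, was the sole gene called of 4 tested in either stage comparison. It fell from 15.4 ± 1.10 to 3.95 ± 1.42 CPM (SD, n = 3 each) in WT tissue (log2 -1.95 ± 0.26, edgeR adjusted p = 6.62e-05) and from 15.3 ± 3.69 to 2.37 ± 0.69 CPM (n = 4 each) in ΔSE tissue (-2.66 ± 0.25, adjusted p = 1.51e-06). Ereg and Epgn, the neighbours of Areg, did not exceed 0.638 CPM for Ereg and 0.247 CPM for Epgn in any library. The list's median was 0.80 in WT and -0.43 in ΔSE tissue, beside -0.05 and -0.07 for all genes.

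Of 5 genes of ligand shedding, Rhbdf1 fell in WT tissue (log2 -0.68 ± 0.14, edgeR adjusted p = 0.00148) and in ΔSE tissue (-0.40 ± 0.12, adjusted p = 0.0145). Rhbdf2, an inactive rhomboid protein that guides the sheddase ADAM17 to the cell surface, rose in ΔSE tissue from 14.4 ± 1.44 to 34.2 ± 4.74 CPM (1.27 ± 0.12, adjusted p = 2.33e-06). In WT tissue Rhbdf2 was at 21.1 ± 0.59 and 25.1 ± 3.55 CPM (0.27 ± 0.14, adjusted p = 0.156). Its interaction of 0.99 ± 0.19 was called (adjusted p = 0.0462). The sheddase genes Adam17 and Adam10 were called in neither stage comparison.

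Of 15 adaptors and kinases of the RAS-ERK cascade, 4 rose and 1 fell in WT tissue, with a median of 0.00. Over all genes 17.2% rose and 12.4% fell there. Among those that rose were Hras (0.71 ± 0.16), Map2k1 (0.63 ± 0.14) and Map2k2 (0.46 ± 0.12). In ΔSE tissue Hras rose (0.38 ± 0.14) and Ptpn11 fell (-0.27 ± 0.10). Of 6 genes of the PI3K-AKT arm, Akt1 rose in both, from 90.0 ± 9.63 to 224 ± 44.0 CPM in WT tissue (1.34 ± 0.18, edgeR adjusted p = 5.41e-05) and from 85.6 ± 9.80 to 161 ± 31.0 CPM in ΔSE tissue (0.93 ± 0.15, adjusted p = 0.000235). Akt2 fell in ΔSE tissue by 0.97 ± 0.15 on the log2 scale.

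Inhibitors of the receptors and of the cascade moved in both directions. In WT tissue 2 of 16 rose and 7 fell (median -0.35), and in ΔSE tissue 3 rose and 8 fell (median -0.25). Over all genes 17.2% rose and 12.4% fell in WT tissue, and 17.3% rose and 18.3% fell in ΔSE tissue. Socs5, which promotes breakdown of EGFR, fell by 1.02 ± 0.16 in WT and by 1.00 ± 0.14 in ΔSE tissue on the log2 scale. Rnf41, a ubiquitin ligase for ERBB3, rose in WT tissue (0.71 ± 0.12, edgeR adjusted p = 0.000441). In ΔSE tissue Rnf41 went from 25.3 ± 1.56 to 33.0 ± 4.21 CPM, a rise that DESeq2 called (0.384, adjusted p = 0.00282). Dusp4, a phosphatase of ERK, rose in ΔSE tissue from 22.2 ± 3.03 to 81.6 ± 8.08 CPM (1.89 ± 0.31, adjusted p = 0.000224), and Errfi1, an EGFR inhibitor, rose there by 0.92 ± 0.15.

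Of 7 transcriptional targets of the cascade that could be tested, 3 fell in each genotype between stages. Over all genes 12.4% were called lower in WT and 18.3% in ΔSE tissue. Etv4 fell from 5.25 ± 4.33 to 0.732 ± 0.185 CPM in WT tissue (log2 -2.81 ± 0.47, edgeR adjusted p = 0.000388) and from 11.1 ± 1.21 to 1.17 ± 0.35 CPM in ΔSE tissue (-3.20 ± 0.40, adjusted p = 1.91e-05). Egr1, an immediate early gene, fell from 26.7 ± 6.38 to 5.35 ± 0.38 CPM in WT tissue (-2.29 ± 0.32) and from 33.8 ± 13.8 to 10.3 ± 1.04 CPM in ΔSE tissue (-1.69 ± 0.27). Etv5 was the gene called at p6, with 25.1 ± 1.63 CPM in ΔSE and 15.6 ± 3.64 CPM in WT tissue (0.69 ± 0.15, adjusted p = 0.0430).

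In the single-enhancer lines many pathway genes were called, as were 32.3% and 25.2% of all genes. Of 53 pathway genes 15 rose and 4 fell in ΔCsn1s2bE tissue against WT, and 11 rose and 5 fell in ΔCsn3PE tissue. Rhbdf1 was lower in both (log2 -1.38 ± 0.19 and -1.26 ± 0.21, edgeR adjusted p = 0.000827 and 0.00377), as was Rhbdf2 (-1.18 ± 0.19 and -0.79 ± 0.22). All of these carry the difference between the sets.

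Levels of Areg and Egf were also read beside markers of the cells that are known to make them. All 7 markers of hormone-sensing luminal cells fell between stages in WT and in ΔSE tissue, beside 12.4% and 18.3% of all genes called lower. Their summed level went from 270 to 593 CPM at p6 to 156 to 188 CPM at p18 in WT tissue. In ΔSE tissue it went from 252 to 399 CPM to 140 to 159 CPM. Of the 7, Tnfsf11, which encodes RANKL, was called at p18, with 6.21 to 8.54 CPM in ΔSE and 0.390 to 1.91 CPM in WT tissue (log2 2.47 ± 0.48, edgeR adjusted p = 0.0397). The other 6 were not called, among them Esr1 (-0.36 ± 0.17), Pgr (-0.36 ± 0.33), Wnt4 (0.39 ± 0.24) and Foxa1 (0.84 ± 0.62). The part of these cells in the Areg levels was not tested. All 5 alveolar markers rose between stages in both genotypes, beside 17.2% of all genes called higher in WT and 17.3% in ΔSE tissue. The summed level of these 5 (the milk genes Csn2, Wap, Lalba and Glycam1 and the transcription factor Elf5) at p18 was 37076 to 54292 CPM in WT and 20075 to 39600 CPM in ΔSE tissue, with no marker called at p18. Csn2 is itself a gene of the casein locus that lacks its super-enhancer in ΔSE tissue. A direct effect of the deletion on Csn2 and a change in alveolar cells cannot be told apart in this sum. At p6 the sum was 92.2 to 1488 CPM in WT and 48.2 to 121 CPM in ΔSE tissue. There 2 of the 5 markers were called lower in ΔSE tissue, beside 1.03% of all genes called in either direction. The part of these alveolar levels in the lower Egf of ΔSE tissue was not tested.

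Finally, the genes whose levels ran most alike to those of Areg and Egf were ranked by Pearson's r of log2 levels over the 14 WT and ΔSE libraries, which share the fall or rise between stages. For Areg these were Agtr1a (0.977), Tnfsf11 (0.977), Arhgap6 (0.976), Myb (0.970) and Rgs12 (0.965). Agtr1a encodes the angiotensin receptor and Myb a transcription factor. Agtr1a was at 5.39 to 7.23 CPM in WT and 8.03 to 14.3 CPM in ΔSE tissue at p18. For Egf they were Mul1 (0.972), Asb13 (0.949), Tchh (0.944), Chuk (0.941) and Uso1 (0.932). Chuk encodes a kinase of the NF-κB pathway and Uso1 a vesicle tethering factor. Tchh was at 4.68 to 7.14 CPM in WT and 1.36 to 2.74 CPM in ΔSE tissue at p18, and Mul1 at 22.7 to 25.5 and 17.6 to 19.8 CPM.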

How the data were processed

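The deposited values are whole-number counts of reads per gene, which the authors made by trimming with Trimmomatic, aligning to mm10 with STAR and, as named for the single-enhancer libraries, counting with HTSeq, without normalization. Entries that name no gene occurred in the 5 single-enhancer files (reads outside genes 13.2 to 20.9%) and were left out. Replicates are described as independent biological replicates by the study.

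Genes with at least 10 reads in total were tested with edgeR 4.0.16 (glmQLFit and glmQLFTest, TMM) in R 4.3.3, in a model of 14 WT and ΔSE libraries (17844 genes) and a model of 8 WT and single-enhancer libraries at p18 (17125 genes). A gene was called at a Benjamini-Hochberg adjusted p under 0.05 over all genes. Standard errors came from the F statistic. CPM levels were scaled by TMM over all 19 libraries, so ratios of printed levels can differ slightly from fitted fold changes. The Egf to Areg ratio was tested by exact permutation with the smaller one-sided p doubled. Exon lengths and positions follow GENCODE M21 (GRCm38).

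The members, gene lists and tests were chosen with earlier results of these data known. Named genes are the 10 members, up to 3 called genes of each pathway list per comparison with the smallest p, and the 5 genes most correlated with Areg and with Egf (mean of at least 1 CPM, predicted symbols left out). Some results of this rule are not reported here. Tnfsf11, Esr1, Pgr, Ereg, Epgn, Adam17, Adam10, Csn3, Csn1s2b, Mien1 and the marker genes were named beyond this rule, with their values seen. Alternatives were DESeq2 1.42.0, other scalings and filters, thinned counts, 1 factor of unwanted variation, other sets of libraries, a replicate block and each library left out. In a test on simulated counts for ΔSE against WT at p18, edgeR found 73 of 100 genes given a 2-fold change. It found 98 of 100 given a 4-fold change, and 6 of its 177 calls were false. DESeq2 made 206 calls there, of which 26 were false. For ΔCsn1s2bE against WT, 16 of 187 edgeR calls and 35 of 220 DESeq2 calls were false. The changes were given only to genes above a minimum expected count. These shares therefore do not apply to members that rest on few reads.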

Additional observations from a re-analysis of the deposited data

Results flagged for a closer look

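Erbb3 was at 46.1 CPM in ΔSE replicate 4 at p6, while the other 3 libraries of that group were at 75.4 to 80.7 CPM. The gap to the nearest library was 0.847 of the range of the group, above Dixon's 95% critical value for 4 samples. Among 22 groups of 4 checked, for the 10 members and the Egf to Areg ratio, 1 stood out in this way, and chance gives about 1 in 20. The same library had the highest skeletal muscle sum of its group (3381 CPM, against 47.4 to 2149 CPM) and the highest adipocyte sum (3164 CPM, against 1476 to 1987 CPM). It had the lowest sums of hormone-sensing luminal markers (252 CPM, against 364 to 399 CPM) and of luminal epithelial markers (451 CPM, against 682 to 884 CPM). The part of these in the low Erbb3 level was not tested. No member changed in opposite directions between stages in WT and ΔSE tissue with both groups apart.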

How the results depend on the processing

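Areg kept its fall between stages in WT tissue under all 26 alternatives, and no called member changed sign under any. Between stages, 1 factor of unwanted variation left 1 member called in WT tissue (4 otherwise) and 0 in ΔSE tissue (6 otherwise). Over all genes that setting called 83 higher and 34 lower in WT tissue and 0 in ΔSE tissue. For ΔSE against WT tissue at p18 (2 otherwise), 1 member was called with filterByExpr, library totals alone, thinned counts, all 19 libraries in one model or without Rn45s, and 0 with WT replicate 1 as the sole WT library at p18. At p6 (0 otherwise) DESeq2 called 1, and for the interaction (0 otherwise) DESeq2 and no filter called 1 each. For ΔCsn1s2bE against WT (1 otherwise), 1 factor of unwanted variation gave 2. Library totals alone gave 2 other members, Egf (0.862) and Nrg1 (0.815), both higher, and Erbb2 was not called. With WT replicate 1 alone the log2 difference of Erbb2 was -0.538. For ΔCsn3PE (1 otherwise), a fit of only the groups compared gave 2. Library totals alone gave 2 other members, Nrg1 (1.04) and Erbb3 (0.697), both higher, and Erbb4 was not called. With WT replicate 1 alone the log2 difference of Erbb4 was -0.662. The cause was not tested.

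Replicate numbers are shared between groups, but same-numbered libraries did not deviate together (median correlation 0.03, -0.29 to 0.25, over WT and ΔSE tissue, with 6 of 19 pairs over 0.1, and -0.00 in the other model). With the replicate number as a block, 1 member was called for ΔSE against WT at p18 and 0 for ΔCsn3PE against WT, and the calls lost were Areg and Erbb4.

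With 1 library left out in turn, the members called numbered 3 to 5 for WT and 5 to 7 for ΔSE tissue between stages, 0 to 2 for ΔSE against WT at either stage, 0 to 1 for the interaction, 1 to 2 for ΔCsn1s2bE, 0 to 2 for ΔCsn3PE and 0 to 0 between these lines. The log2 ratio difference of Egf to Areg ran from 7.94 to 9.18 and from 4.32 to 4.82 between stages, from -5.31 to -4.18 at p18 and from -1.62 to -0.37 at p6, but from -1.77 to 1.2 for ΔCsn1s2bE, from -2.49 to 0.90 for ΔCsn3PE and from -1.28 to 2.10 between the lines. The smaller groups leave some fits with 1 library in a group, assumed to vary like the others.

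Library totals alone as the scaling moved the median log2 change of all genes to -0.42 and -0.65 between stages in WT and ΔSE tissue, to -0.28 for the interaction, to 0.16 for ΔSE against WT at p6 and to 0.40 and 0.42 in the single-enhancer lines. It moved the share of called genes that were higher between stages from 58.1 to 17.2% in WT and from 48.6 to 7.3% in ΔSE tissue, and from 53.4 to 86.2% and 54.5 to 89.1% in the single-enhancer lines.

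Depth limits Areg at p18, Hbegf, Tgfa and Nrg1, which rest on few reads in some libraries.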
